A study of Homo sapiens with 7 samples.

Results

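Extracellular proteases and the proteins that block them were followed in 501Mel, a human melanoma cell line, after knockdown of the long non-coding RNA GRASLND. The members were chosen by gene symbol, with earlier results of these data known: the matrix metalloproteinases (MMP), the ADAM and ADAMTS families, the tissue inhibitors of metalloproteinases (TIMP), the serpins, and the plasminogen activator genes PLAT, PLAU and PLAUR. Of the 21305 genes in the expression table, 43 were members, and 30 of them were abundant enough to be tested, among 15420 tested genes. PLAU, TIMP3 and TIMP4 were not analysed here.

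The cells carried a doxycycline-inducible short hairpin, introduced with a lentivirus and kept as a selected pool of cells. In 3 libraries the hairpin was aimed at the bacterial gene lacZ (shlacZ, the control), in 2 it was the GRASLND hairpin sh4 and in 2 the GRASLND hairpin sh8. All 3 groups received doxycycline, so the inducer itself was common to the control. The RNA was ribosome-depleted total RNA read by sequencing, and the values are normalized counts, that is, reads per gene divided by a size factor for each library. Depth, counted as reads assigned to the genes with values, ranged from 13337317 to 22855232 per library, a part of all reads sequenced. The labels number the libraries of a group without saying whether they were separate cultures, so p-values measure the spread between these libraries, which may be technical.

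GRASLND itself was at 309, 329.9 and 289.7 normalized counts in the shlacZ libraries, 175 and 131 under sh4 and 227 and 163 under sh8. The difference from shlacZ passed the test under sh4 (log2 fold change -1.02 ± 0.21 SE, adjusted p = 0.00662) and had an adjusted p of 0.11 under sh8, with all libraries of either hairpin below all of the control. Of 8 melanocytic markers all were detected, and their summed level was 135855 to 146631 in shlacZ, 52282 to 60068 under sh4 and 101817 to 104837 under sh8. By gene, 6 of the 8 passed as lower under sh4 (11.9% of all tested genes). Under sh8, 0 of the 8 passed (2.92% of all), with a median log2 fold change of -0.44. Under each hairpin 2 of the 8 had a positive log2 fold change. In bulk RNA, fewer cells of a type and less RNA per cell cannot be told apart. Among markers of other cells, 1 of 6 fibroblast genes had values (sum 5.24 to 16.4 in any library), 2 of 5 keratinocyte genes (143 to 219) and 2 of 5 leukocyte genes, and 0 of 3 endothelial genes. The leukocyte sum was 498 to 675 in shlacZ, 914 to 933 under sh4 and 573 to 678 under sh8. It moved through LYZ, the lysozyme gene (log2 fold change 7.40 under sh4, adjusted p = 0.00011), while the log2 fold change of CD68 was -0.16 (adjusted p = 0.585). The part of these shifts in the results below was not tested.

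Matrix metalloproteinases are zinc-dependent enzymes that cut collagens and other matrix proteins. Some are secreted and others stay anchored in the cell membrane, where they act at the cell surface. ADAM proteins are membrane-bound relatives that shed the outer parts of growth factors and receptors, and ADAMTS proteins are secreted relatives that cut proteoglycans and other matrix components. TIMP proteins bind and block the metalloproteinases. A separate system turns plasminogen into plasmin with the activators tPA (gene PLAT) and uPA (gene PLAU), the latter held at the cell surface by its receptor PLAUR, and serpins block these enzymes by trapping them. In melanoma both systems are known for their part in invasion.

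Stretches of promoter sequence are shown for PLAUR, SERPINB8 and SERPINE2, which held a searched motif and whose transcripts are described below. Promoters were the 250 bases before the RefSeq gene start on GRCh38.p14, and 28 of the 43 members had an entry. They were searched on both strands for TGACTCA, the site read by AP-1 factors, and for the E-boxes CACGTG and CATGTG, the sites read by MITF and related factors. TGACTCA stood in 2 of these 28 members, PLAUR and SERPINB8, and in 4.16% of all 27305 promoters. CACGTG stood in 4 of the 28 (ADAM10, ADAMTS6, ADAMTS17 and SERPINE2) and in 6.49% of all promoters. CATGTG stood in 3 of the 28 (ADAMTS6, SERPINB2 and SERPINE2) and in 9.54% of all promoters. These small counts were not tested against the shares. The MMP14 promoter held none of these letters. The 27 bases around the AP-1 letters follow, 5′ to 3′ on the strand of the gene, with the match in capitals; TGAGTCA reads TGACTCA on the other strand. The match began 186 bases before the start in PLAUR (chr19:43670339-43670365, minus strand) and 28 bases before it in SERPINB8 (chr18:63970043-63970069, plus strand). In GENCODE release 44, 1 exon and 1 transcript on the same strand overlapped the PLAUR stretch. For the SERPINB8 stretch these were 2 exons and 3 transcripts.
PLAUR: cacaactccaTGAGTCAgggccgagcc
SERPINB8: cgaacggttcTGAGTCAtctgccggaa

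The whole window of SERPINE2 (chr2:224031479-224031728, minus strand) is shown because it repeats the E-box. CACGTG occurred once and CATGTG 5 times, the latter printed as CACATG on this strand, and all are in capitals. Of the 27305 promoters, 2 held at least 6 such matches, SERPINE2 among them (0.00732%). This count was made after the matches were seen. The window consists largely of near-copies of the same stretch, and the matches recur with these copies, so they are not independent occurrences. No exon of GENCODE release 44 on the same strand overlapped the window, which lies inside 5 transcripts on that strand.
SERPINE2: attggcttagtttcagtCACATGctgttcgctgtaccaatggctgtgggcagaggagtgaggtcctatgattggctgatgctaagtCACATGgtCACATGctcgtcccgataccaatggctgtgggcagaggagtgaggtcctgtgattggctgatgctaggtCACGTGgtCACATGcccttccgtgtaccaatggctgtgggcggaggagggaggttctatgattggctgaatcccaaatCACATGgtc
A match is a string of letters and says nothing of a bound factor.

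In the control cells the members spanned a wide range of levels, compared here per kilobase of merged exon. MMP14, the collagen-cutting membrane type 1 enzyme, was the highest at 467 ± 106 normalized counts per kilobase (SD, n = 3). ADAM10, the sheddase of Notch and cadherins, stood at 460 ± 32.8. SERPINF1, a secreted serpin known as PEDF that does not inhibit proteases, followed at 385 ± 62.3, then TIMP2 at 319 ± 7.27 and SERPINE2 at 288 ± 76.0. The next in order were ADAM23, ADAM9, PLAT, ADAM17 and TIMP1, from 229 down to 97.2. Along the first 12 places, 4 neighbouring pairs were apart in every control library (ADAM23 over ADAM9, ADAM9 over PLAT, ADAM17 over TIMP1 and MMP17 over ADAM22), and the other 7 overlapped. The first 10 places held the same 10 genes when the length of the longest transcript was used, with SERPINF1 first at 801 per kilobase. MMP2, the gelatinase A gene and the one secreted MMP abundant enough to be tested, was at 11.8 ± 4.79 per kilobase.

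**Figure D1:**
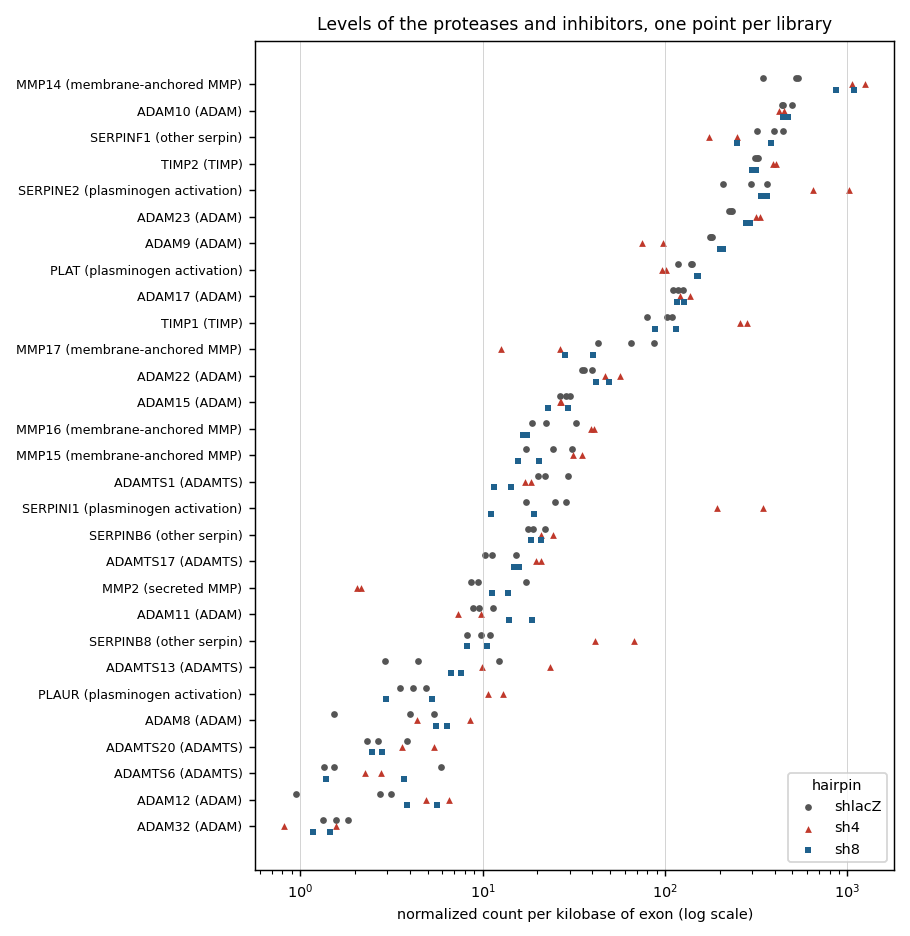
Normalized counts per kilobase of exon (log axis) for the 29 members with a mean of at least 10 normalized counts in shlacZ, ordered by that mean, with 1 point per library. MMP14 is at the top and shifted to the right under both hairpins, while SERPINI1 and SERPINB8 are shifted to the right under sh4 and MMP2 to the left.

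The other 13 members were below a mean of 10 normalized counts and were not tested. They were ADAM20, ADAMTS4, ADAMTS5, ADAMTS16, MMP8, MMP9, MMP11, MMP24, SERPINA1, SERPINA12, SERPINB2, SERPIND1 and SERPINF2. Each had 10 to 56 reads summed over the 7 libraries, and no library exceeded 14.2 normalized counts, in ADAM20. MMP9, the gelatinase B gene, was at 0, 1.05 and 0 normalized counts in shlacZ, 1.13 and 6.72 under sh4 and 0 and 0.91 under sh8. ADAM20 was at 3.10, 2.09 and 4.35 in shlacZ, 13.6 and 14.2 under sh4 and 7.91 and 8.19 under sh8. When no minimum mean was required, it passed under sh4, where 16.1% of all genes passed. None of the others among these 13 passed in any comparison of that fit. Counts this low, 12 and 19 reads for ADAM20 in the sh4 libraries, leave little precision for a comparison at this depth.

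Under sh4, 16 of the 30 tested members differed from shlacZ at an adjusted p under 0.05, beside 22.5% of all tested genes. Of these, 11 were higher (10.5% of all tested genes) and 5 lower (11.9%), and 10 also differed by more than 2-fold (8.16%). The median log2 fold change was 0.49 over the 30 members and -0.01 over all tested genes. ADAM19 reached the minimum mean of 10 under sh4 alone and so had to differ, and without it 15 of 29 members passed. The libraries of sh4 and shlacZ did not overlap in 20 of the 30 members, against 50.6% of all tested genes. The count of 16 became 10 without the first sh4 library, where ADAM22, ADAM23, ADAMTS17, MMP16, PLAT and PLAUR were lost (10.3% of all tested genes passed), and 9 without the second (9.16% of all), where ADAM22, ADAMTS17, MMP16, MMP17, PLAT, PLAUR and SERPINF1 were lost.

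Under sh8, 1 of the 30 members passed, beside 2.92% of all tested genes, and it was MMP14. The median log2 fold change of the members was 0.03. An unadjusted p under 0.05 was found in 7 of the 30, beside 2858 of all 15420 tested genes. The sh8 and shlacZ libraries did not overlap in 12 members, against 34.4% of all tested genes. Between sh4 and sh8, 9 members differed, beside 7% of all tested genes. Of these, 6 were higher under sh4 (3.67% of all) and 3 lower (3.33%), and 8 also differed by more than 2-fold (3.19%). Without ADAM19, which was tested only through its level under sh4, 8 of 29 members differed. The libraries of the hairpins did not overlap in 19 members, against 54.2% of all tested genes. The count of 9 became 3 without the second sh4 library (0.934% of all tested genes) or without the first sh8 library (1.55%), when ADAM9, SERPINB8 and SERPINI1 remained. It became 4 without the second sh8 library (2.51%), when TIMP1 remained as well.

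With both hairpins pooled against shlacZ, as in the design of the study, 1 member of 30 passed, beside 4.61% of all tested genes. It was again MMP14. An unadjusted p under 0.05 was found in 10 of the 30 members, beside 3711 of all 15420 tested genes. When the mean of both hairpins was taken from the fit with 3 groups, which does not count the difference between the hairpins as noise, 11 members passed, beside 16.4% of all tested genes. Such a mean can pass through 1 hairpin alone. ADAM9 (log2 fold change -1.06 under sh4 and 0.19 under sh8), MMP2 (-2.30 and 0.14), SERPINB8 (2.43 and -0.05) and SERPINI1 (3.45 and -0.64) had opposite signs under the hairpins. ADAM19, tested only through its level under sh4, ADAM23, ADAMTS1, MMP14, MMP17, SERPINE2 and TIMP1 (1.47 and 0.06) had the same sign under both. A sign alone shows no effect: of these genes, MMP14 alone passed under sh8.

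**Figure D2:**
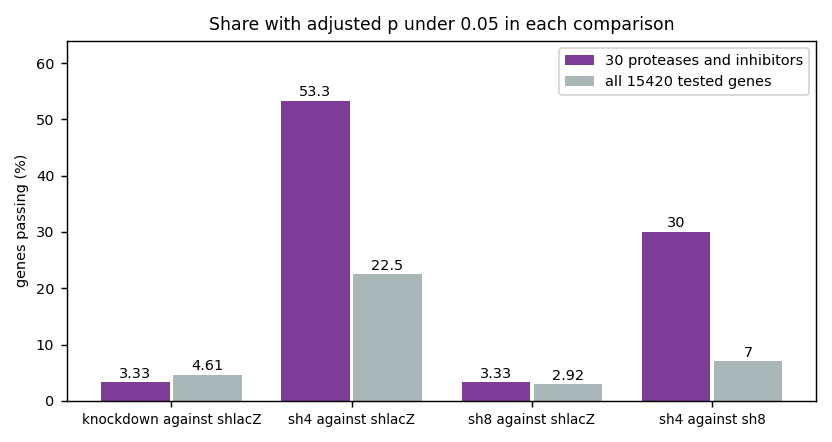
Percent of genes with an adjusted p under 0.05 in each comparison, for the 30 tested proteases and inhibitors and for all 15420 tested genes. The members' bar is 53.3% against 22.5% for sh4, 30% against 7% between the hairpins, and within 2 percentage points of the background for sh8 and for the pooled comparison.

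MMP14 (chr14:22836560-22849041 on GRCh38, plus strand) was the member that passed under each hairpin. It stood at 1597, 2471 and 2409 normalized counts in the shlacZ libraries, 4893 and 5799 under sh4 and 3997 and 5042 under sh8. All 4 knockdown libraries were above all 3 control libraries, while the hairpins overlapped each other. The log2 fold change was 1.33 ± 0.20 (SE) under sh4 (adjusted p = 0.00147), 1.08 ± 0.20 under sh8 (adjusted p = 0.0195) and 1.21 ± 0.18 for both pooled (adjusted p = 0.00958), or 2.51-fold, 2.12-fold and 2.31-fold. The difference between the hairpins was 0.25 with a 95% interval of -0.23 to 0.73. The call under sh8 was lost without the first sh8 library (adjusted p = 0.076), without the second (0.198) and without the variance trend of the test (0.111).

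Of the other 3 tested membrane-anchored enzymes, MMP16 rose and MMP17 fell under sh4, and MMP15 did not pass. MMP16, or MT3-MMP, was at 393, 268 and 226 in shlacZ, 479 and 494 under sh4 and 212 and 202 under sh8. Its sh4 libraries were above and its sh8 libraries below all control libraries. It rose by 0.75 on the log2 scale under sh4 (SE 0.22, adjusted p = 0.0342), had a value of -0.47 under sh8 (adjusted p = 0.288), and differed between the hairpins by 1.23 ± 0.24 (SE, adjusted p = 0.0154). The rise under sh4 was lost in 9 of 16 alternatives. It was lost without the second or the third control library (adjusted p = 0.0944 and 0.103) and without any one of the sh4 or sh8 libraries. It was also lost without the variance trend (0.0782), with the replicate block (0.0622) and with only the libraries compared (0.0502). The difference between the hairpins was lost without any one of the sh4 or sh8 libraries (log2 difference 1.19 to 1.26) and without the variance trend (adjusted p = 0.0633).

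MMP17, or MT4-MMP, which is tethered to the membrane by a lipid, was at 171, 349 and 259 in shlacZ, 106 and 50.8 under sh4 and 162 and 114 under sh8, so that its knockdown libraries lay below every control library. The log2 fold change was -1.75 ± 0.36 (SE) under sh4 (adjusted p = 0.00778), or 3.36-fold lower, and -0.87 ± 0.36 under sh8 (adjusted p = 0.238). Without the second sh4 library the adjusted p under sh4 was 0.0888. MMP15, or MT2-MMP, did not pass, with log2 fold changes of 0.50 (sh4, adjusted p = 0.225) and -0.40 (sh8, adjusted p = 0.484).

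MMP2 is the secreted gelatinase whose inactive form is cut into the active enzyme by MMP14 with the help of TIMP2. It was at 81.5, 40.8 and 44.4 in shlacZ, 10.2 and 9.70 under sh4 and 52.7 and 64.6 under sh8. The sh4 libraries were far below all others, and the sh8 libraries lay within the control range. It fell by 2.30 on the log2 scale under sh4 (SE 0.36, adjusted p = 0.00214), 4.93-fold lower, and its difference between the hairpins was -2.44 ± 0.40 (SE, adjusted p = 0.00727). Its 9 and 13 reads in the sh4 libraries make the level there imprecise. Without the second sh4 library, the first sh8 library or the second sh8 library the difference between the hairpins had an adjusted p of 0.0764, 0.0503 and 0.0558.

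Of the TIMP genes, TIMP1 rose under sh4 and TIMP2 did not pass. TIMP1 (chrX:47582408-47586789), which blocks most soluble MMPs and blocks MMP14 poorly, was at 116, 157 and 149 in shlacZ, 372 and 407 under sh4 and 128 and 166 under sh8. Both sh4 libraries were above all others, and the sh8 libraries overlapped the control. It rose by 1.47 on the log2 scale under sh4 (SE 0.20, adjusted p = 0.00109, 2.78-fold), and its value under sh8 was 0.06 with a 95% interval of -0.39 to 0.52. It differed between the hairpins by 1.41 ± 0.22 (SE, adjusted p = 0.00649), a call lost without the second sh4 library (0.0892) or the first sh8 library (0.0662).

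TIMP2, the more abundant of the pair per kilobase, was at 1992, 2018 and 1930.4 in shlacZ, 2415 and 2509 under sh4 and 1852 and 1948 under sh8. The sh4 libraries were above the control, but by little. Its log2 fold change was 0.31 ± 0.11 (SE) with sh4 (adjusted p = 0.058) and -0.06 ± 0.11 with sh8 (adjusted p = 0.812).

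Within a library, the level of MMP14 per kilobase divided by that of TIMP2 was 1.08, 1.64 and 1.68 in shlacZ, 2.72 and 3.10 under sh4, and 2.90 and 3.48 under sh8. The ratio of the inhibitor TIMP1 to TIMP2 was 0.249, 0.334 and 0.331 in shlacZ, 0.661 and 0.696 under sh4, and 0.296 and 0.365 under sh8. The first ratio was above the control under both hairpins and the second under sh4, while its sh8 values overlapped the control. These ratios describe transcripts and were not tested.

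Of the 11 tested ADAM genes, 4 passed under sh4 (ADAM19, ADAM22 and ADAM23 rose and ADAM9 fell), beside 22.5% of all tested genes, and the sheddases ADAM10 and ADAM17 were not among them. ADAM10 was at 7939.7, 6962 and 7126 in shlacZ, 6704 and 7204 under sh4 and 7070.4 and 7567 under sh8. ADAM17, which releases TNF and ligands of the EGF receptor, was at 1768, 2009 and 1873, 1919 and 2186 and 2038 and 1857 in the same order. The groups overlapped in both genes. The 95% interval of the log2 fold change under sh4 was -0.33 to 0.18 for ADAM10 and -0.14 to 0.39 for ADAM17, and under sh8 it was -0.26 to 0.25 and -0.22 to 0.32, so changes of more than 2-fold lay outside all 4 intervals.

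ADAM9, a broadly expressed sheddase, was at 3203, 3119 and 3167 in shlacZ, 1317 and 1735 under sh4 and 3525 and 3689 under sh8. Its sh4 libraries were below and its sh8 libraries above all control libraries. It fell by 1.06 on the log2 scale under sh4 (SE 0.13, adjusted p = 0.000598, 2.09-fold lower), its value under sh8 was 0.19 ± 0.13 (adjusted p = 0.484), and the hairpins differed by -1.25 ± 0.14 (SE, adjusted p = 0.00183). Both calls passed when any one library was left out.

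ADAM19, an active sheddase of neuregulin, was almost silent in the control with 0 to 3 reads per library, and had 72 to 215 reads under sh4 and 6 to 9 under sh8. Its fitted log2 fold change under sh4 was 5.68 (adjusted p = 0.000447), a size that depends on the added count of 1. ADAM22 and ADAM23, which lack the catalytic residues and act as adhesion proteins, rose under sh4, with log2 fold changes of 0.49 and 0.50 (adjusted p = 0.0395 and 0.0092). Under sh8 their values were 0.30 and 0.32 (adjusted p = 0.31 and 0.15). The other 6 tested ADAM members (ADAM8, ADAM11, ADAM12, ADAM15, ADAM17 and ADAM32) besides ADAM10 did not pass in any comparison, and their log2 fold changes under sh4 ran from -0.42 in ADAM32 to 1.43 in ADAM12.

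Among 5 tested ADAMTS genes, 1 passed under sh4, near the 22.5% of all tested genes. It was ADAMTS17, with a rise of 0.74 on the log2 scale (adjusted p = 0.0373). Among other alternatives, that call was lost without the third shlacZ library, with quantile normalization, with the replicate block and with only the libraries compared. ADAMTS1, the most abundant of them per kilobase and a protease of versican and aggrecan, was at 161, 215 and 148 in shlacZ, 124 and 135 under sh4 and 104 and 84.6 under sh8. Every knockdown library was below every control library. Its log2 fold change was -0.41 ± 0.22 (SE) with sh4 (adjusted p = 0.22) and -0.87 ± 0.22 with sh8 (adjusted p = 0.0709).

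**Figure D3:**
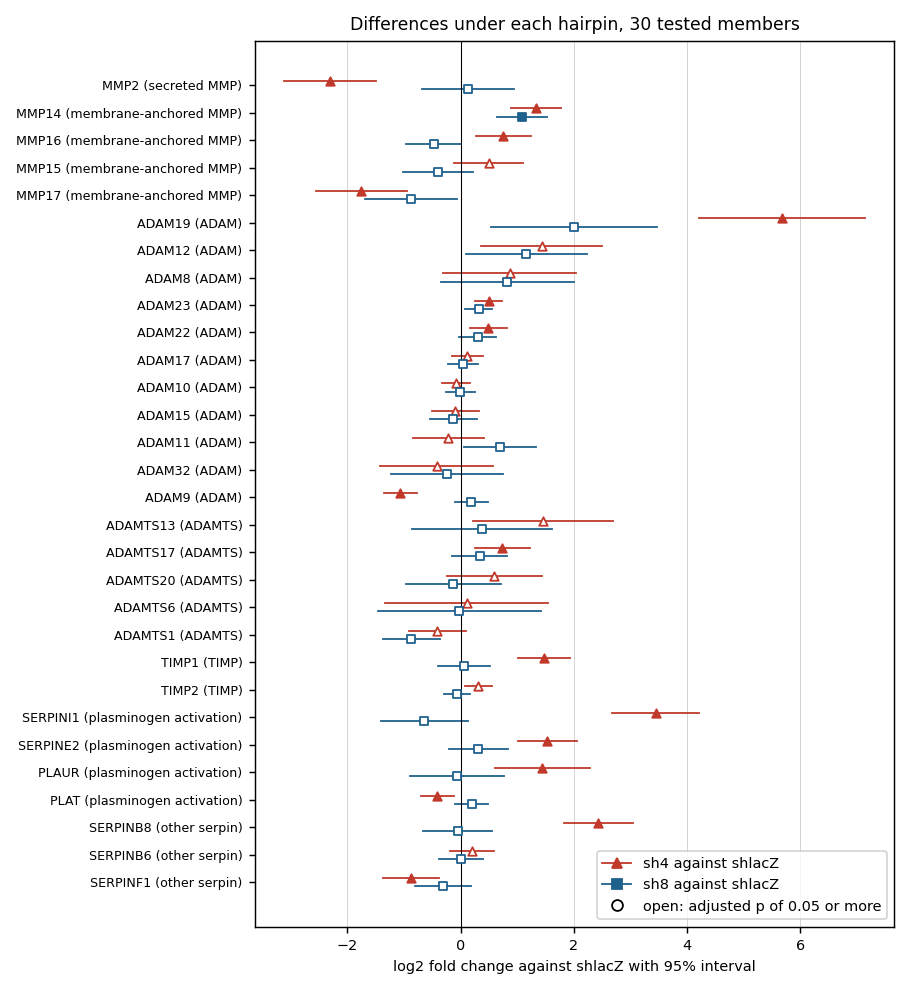
Log2 fold change against shlacZ of the 30 tested members, grouped by role, under sh4 (triangles) and sh8 (squares), each with its unadjusted 95% interval; filled symbols passed at an adjusted p under 0.05. Filled triangles stand at 16 members and a filled square at MMP14 alone.

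All 4 members tested of the plasminogen activation system passed under sh4, beside 22.5% of all tested genes: 3 rose and PLAT fell. SERPINE2 (chr2:223975045-224039318), or protease nexin 1, which blocks thrombin and the plasminogen activators, was at 1871, 3228 and 2639 in shlacZ, 5789 and 9164 under sh4 and 3245 and 3021 under sh8. Both sh4 libraries were above all others, and the sh8 libraries overlapped the control. It rose by 1.53 on the log2 scale under sh4 (SE 0.24, adjusted p = 0.00184, 2.89-fold) and differed between the hairpins by 1.22 ± 0.26 (SE, adjusted p = 0.0211). That difference was lost without the second sh4 library (log2 difference 0.89), the first sh8 library (1.27) or the second sh8 library (1.17). It was also lost without the variance trend (adjusted p = 0.0946).

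SERPINI1 (chr3:167735243-167825569), or neuroserpin, an inhibitor of tPA best known from neurons, had the largest rise among members that were above the minimum mean in the control. It was at 60.9, 36.7 and 53.1 in shlacZ, 409 and 729.9 under sh4 and 23.7 and 41.0 under sh8. The sh4 libraries stood far above the rest, and the sh8 libraries overlapped the control. The rise under sh4 was 3.45 on the log2 scale (SE 0.35, adjusted p = 0.000209, 10.9-fold), and the difference between the hairpins was 4.09 ± 0.38 (SE, adjusted p = 0.00113). Both calls passed under every alternative that was run.

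PLAUR, the uPA receptor, was at 18.6, 15.7 and 21.7 in shlacZ, 47.4 and 57.5 under sh4 and 13.2 and 23.7 under sh8. Both sh4 libraries lay above all others. It rose by 1.45 on the log2 scale under sh4 (SE 0.37, adjusted p = 0.0209), a call lost without the second shlacZ library (0.0633), the first sh4 library (0.0935) or the second sh4 library (0.148). Between the hairpins its adjusted p was 0.0557.

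PLAT, the tPA gene, was at 910.3, 1086 and 1086 in shlacZ, 751 and 792 under sh4 and 1161 and 1183 under sh8. The sh4 libraries were below and the sh8 libraries above all control libraries. It fell by 0.41 on the log2 scale under sh4 (SE 0.13, adjusted p = 0.0453) and differed between the hairpins by -0.60 ± 0.14 (SE, adjusted p = 0.0308). The fall under sh4 was lost without any library other than the first of shlacZ, and in 11 of 16 alternatives in all. Its log2 fold change there ran from -0.49 to -0.31. The difference between the hairpins was lost in 6 of 16 alternatives. SERPINE2 per kilobase divided by PLAT per kilobase was 1.78, 2.58 and 2.11 in shlacZ, 6.69 and 10.04 under sh4, and 2.42 and 2.22 under sh8, a description with no test. Only the sh4 ratios were outside the control range.

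Of the remaining 3 tested serpins, SERPINB8 rose and SERPINF1 fell under sh4. SERPINB8 (chr18:63970029-64019779), an intracellular serpin that inhibits furin, was at 47.5, 56.6 and 63.5 in shlacZ, 238 and 388 under sh4 and 60.6 and 47.3 under sh8. The sh4 libraries were above all others, and sh8 overlapped the control. It rose by 2.43 on the log2 scale under sh4 (SE 0.27, adjusted p = 0.000378, 5.4-fold), with a 95% interval under sh8 of -0.66 to 0.56 and a difference between the hairpins of 2.48 ± 0.30 (SE, adjusted p = 0.00194).

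SERPINF1 was at 1325, 955 and 1177 in shlacZ, 745 and 520.2 under sh4 and 743 and 1141 under sh8. The sh4 libraries were below the control, whereas sh8 overlapped both. It fell by 0.87 on the log2 scale under sh4 (SE 0.22, adjusted p = 0.0197). The call was lost without the second sh4 library (log2 fold change -0.62) and without the variance trend (adjusted p = 0.071). SERPINB6, an inhibitor of cathepsin G, did not pass (log2 fold change 0.20 with sh4, adjusted p = 0.432).

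**Figure D4:**
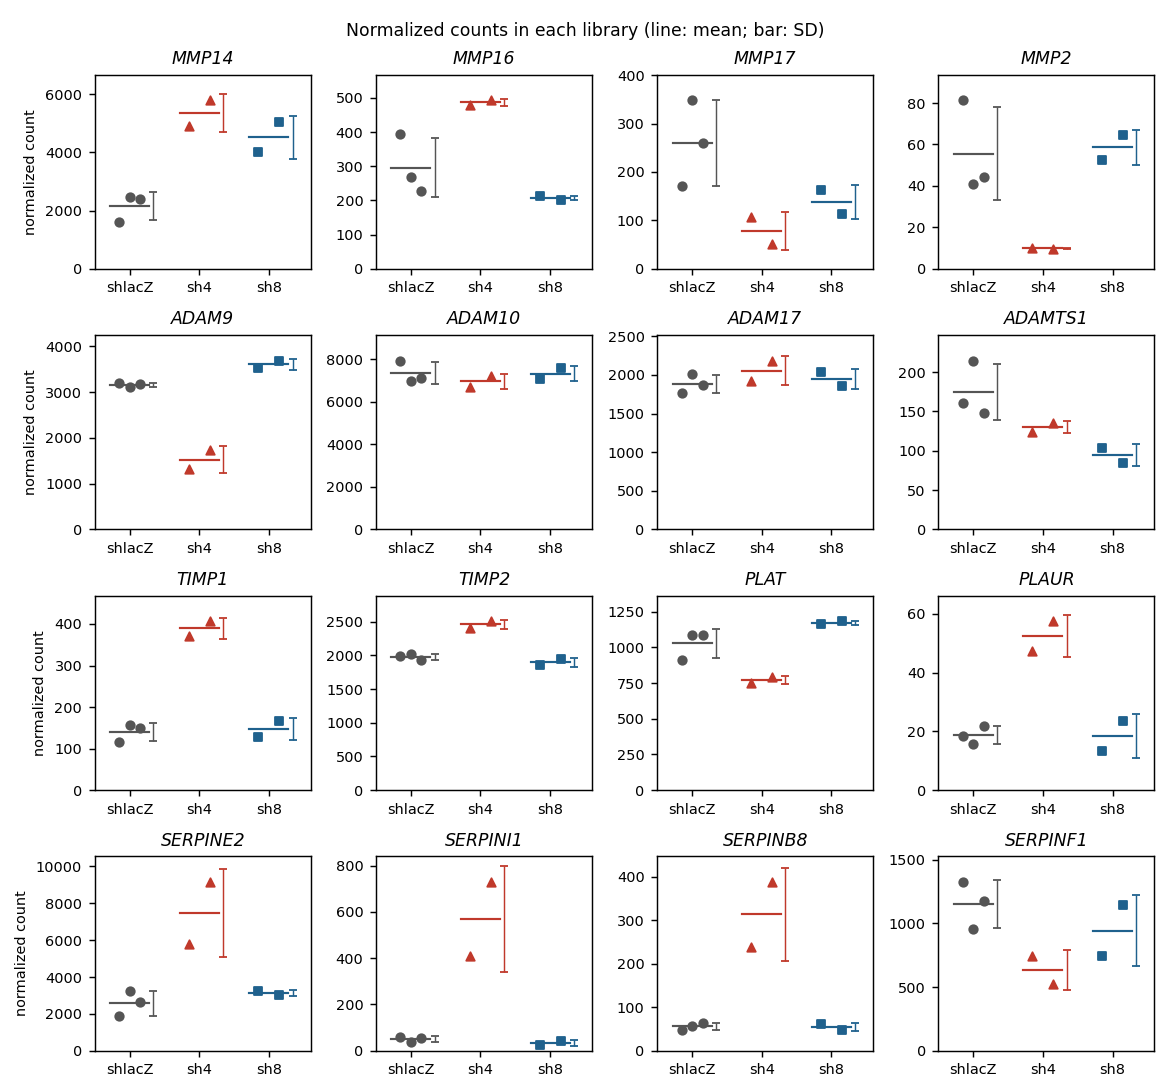
Normalized counts of 16 members in each library (points; axes start at 0), with the group mean as a line and the SD as a bar beside it, for 3 shlacZ, 2 sh4 and 2 sh8 libraries. MMP14 is high in all 4 knockdown libraries, whereas TIMP1, PLAUR, SERPINE2, SERPINI1 and SERPINB8 are high in the 2 sh4 libraries.

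Summed per kilobase over the 43 members, the membrane-anchored MMP genes made up 15.3% to 21.6% of the level in shlacZ, 27.0% to 27.5% under sh4 and 28.2% to 30.6% under sh8. The plasminogen activation genes, inhibitors included, made up 12.6% to 16.9%, 22.6% to 29.8% and 13.7% to 15.8% in the same order. Under sh4, the inhibitors SERPINE2 and SERPINI1 were at 646 and 1023 and at 192 and 343 per kilobase. The activator PLAT was at 96.7 and 102 there, below its 117 to 140 in shlacZ. The receptor PLAUR was at 10.6 and 12.9, above its 3.53 to 4.88 in shlacZ. The ADAM share was 33.9% to 38.8% in shlacZ, 22.7% to 25.2% under sh4 and 31.9% to 34.3% under sh8, and its summed level lay between 1048 and 1206 per kilobase in every library. The membrane-anchored MMP share was thus above the control in every knockdown library, and the share of the plasminogen activation genes in both sh4 libraries. The former was mostly MMP14, with 1058.5 of 1156.9 and 1254.4 of 1343.5 per kilobase under sh4. Under sh8 MMP14 made up 864.5 of 938.1 and 1090.6 of 1156.4. The group did not rise as a whole: MMP17 was below the control under both hairpins, and MMP16 was above it under sh4 and below it under sh8. These shares are a description and were not tested.

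The proteins that activate, hold or clear these enzymes were taken as a list of 24 genes, of which 18 were tested. Under sh4, 7 passed, beside 22.5% of all tested genes: 6 were higher (FURIN, LRP1, PCSK6, S100A10, TSPAN5 and TSPAN14) and TSPAN10 was lower, and the median log2 fold change was 0.28. FURIN, the convertase that activates MMP14 and several ADAM proteins, had a log2 rise of 0.79 (adjusted p = 0.0163), beside 0.36 with sh8 (adjusted p = 0.357), and the call with sh4 was lost without either sh4 library and without the variance trend. LRP1, the endocytic receptor that clears complexes of proteases with serpins, was the list's one gene that passed under each hairpin. Its log2 rise was 0.80 with sh4 (adjusted p = 0.0415) and 1.11 with sh8 (adjusted p = 0.0417). The call with sh4 was lost when shlacZ library 2 or 3 was left out, without either sh4 library, without the variance trend and with equal upper quartiles. The call with sh8 was lost without any one library other than the first of shlacZ, without the variance trend, with only the libraries compared and with quantile or upper-quartile scaling. RECK, a membrane inhibitor of MMP enzymes, did not pass, at 0.64 and 1.07 (adjusted p = 0.122 and 0.0691).

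Of 44 other proteases and inhibitors on a list, 17 were tested. Under sh4, 6 passed, beside 22.5% of all tested genes: 5 were higher (A2M, BMP1, CTSB, CTSS and TFPI) and CTSL was lower, and the median was 0.37. A2M, a broad trap for proteases of all classes, rose with each hairpin, by 2.41 with sh4 and 1.43 with sh8 on the log2 scale (adjusted p = 0.000313 and 0.0195). Its call with sh8 was lost without the second shlacZ library, the second sh8 library or the variance trend. The lysosomal protease CTSB passed with sh4 and not with sh8, at 1.95 and 0.93 (adjusted p = 0.00108 and 0.0977).

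Of 25 known substrates, 14 were tested. ALCAM rose under sh4 and BCAN and MET fell, so that 3 of 14 passed, near the 22.5% of all tested genes, with a median of 0.27 over the 14. Under sh8, MET fell by 0.73 (log2, adjusted p = 0.0135), and SPARC, a matrix protein cut by several MMP enzymes, rose by 0.88 (adjusted p = 0.0473), beside 2.92% of all tested genes that passed. Both calls were lost when shlacZ library 2 or 3 was left out, without either sh8 library and without the variance trend, and that of SPARC also without either sh4 library and with only the libraries compared.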

How the data were processed

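Total RNA from 7 libraries of a human melanoma line was depleted of ribosomal RNA and sequenced with a stranded kit. Per the labels and the methods of the study, the authors trimmed reads with Cutadapt, aligned them to hg38 with STAR and quantified genes with Salmon before scaling; tool versions and the annotation were not given in the sources used here. The deposited table, made by the authors, holds normalized counts for every library, in which the estimated count of a gene was divided by the library's size factor; it gives neither raw counts nor a value per length. Within 0.01 reads, 100% of the values were whole multiples of what 1 read was worth in that library, so whole reads were recovered for the depth and for an alternative. All 7 columns were matched to a sample by name, and 0 columns belonged to no sample. Genes under 10 summed reads had no row.

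The test was limma (version 3.58.1, R 4.3.3) on log2(normalized count + 1) with a variance trend, for genes whose mean over the 7 libraries reached 10, and with Benjamini-Hochberg adjustment over all 15420 genes tested. Fold changes on this scale understate the change of low genes. The pooled comparison used 2 levels, after the study's design, and the others a fit with 3 groups. Passing meant an adjusted p under 0.05. The scripts were tested on simulated data. Levels per kilobase used the merged exons of GENCODE release 44, which holds 99.9% of the identifiers. Values are given by library for members past both thresholds (log2 fold change beyond 1) in any comparison with a mean of at least 50, for a fixed set (the TIMP and plasminogen activator genes, SERPINE2, MMP2, MMP9, MMP14, ADAM10 and ADAM17) and for the most abundant member of each role. The members and lists were chosen with earlier results of these data known. Protein sequences were not used here, so the ADAM genes were not split by their catalytic residues from sequence. A gene that the choice by symbol would include is not reported here and is in none of the counts of members.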

Additional observations from a re-analysis of the deposited data

Results flagged for a closer look

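For 9 members the effect of a hairpin differed between sh4 and sh8 by the test of that difference. They include ADAM19, which was abundant enough to be tested only through sh4 and so had to differ; without it 8 of 29 members passed. The log2 difference, sh4 minus sh8, was 4.09 for SERPINI1, 3.67 for ADAM19, 2.48 for SERPINB8, 1.41 for TIMP1, 1.23 for MMP16, 1.22 for SERPINE2, -0.60 for PLAT, -1.25 for ADAM9 and -2.44 for MMP2. The GRASLND transcript itself differed between the hairpins by -0.34 (adjusted p = 0.421), and 6 of 8 melanocytic markers were lower under sh4 than under sh8 (3.33% of all tested genes), with a median log2 difference of -0.76 over the 8 and a range of -2.30 in DCT to 0.25. The part of either in these differences was not tested. No member had a knockdown library that stood apart from the other 3 by Dixon's ratio, the highest being 0.686 in ADAMTS13, below the 95% critical value. The ratio took the libraries of both hairpins together. Where the hairpins differ, as in MMP2 (0.11) and PLAT (0.12), the values split by hairpin and the ratio could hardly flag a library.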

How the results depend on the processing

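Of 22 pairs of a named member and a comparison that passed, 10 passed under every alternative that was run, and 50 of 349 values over all pairs no longer passed; no value of these pairs changed sign. The size of the change in other members and in genes outside the members was not followed across alternatives. Percentages in parentheses are the share of all tested genes that passed in the same fit. For the pooled comparison the count of 1 became 0 without the variance trend (0.895%), 2 with quantile normalization (4.36%), with equal upper quartiles (4.88%) or with limma-voom on recovered reads (4.96%), and 11 with the mean of both hairpins from the fit with 3 groups (16.4%); leaving out a library gave 1 to 4 (0.415% to 7.42%). For sh4 against shlacZ the count of 16 became 10 when a log2 fold change beyond 1 was also required (8.16%), and leaving out a library gave 9 to 19 (9.16% to 31.5%). For sh8 the count of 1 became 0 without the variance trend (0.383%), and leaving out a library gave 0 to 2 (0.344% to 10.4%). Between the hairpins the count of 9 became 3 to 12 when a library was left out (0.934% to 12.8%). The causes were not tested. The replicate numbers are no evidence of pairing: libraries with the same number had correlations of -0.08 to 0.34 between their deviations from the group means, and with the replicate block the counts were 1, 14, 1 and 11 for the pooled comparison, sh4, sh8 and sh4 against sh8 (0.272%, 21.9%, 3.72% and 9.51%). The first shlacZ library differed most from its group (median absolute log2 difference over members of 0.432 and 0.303, against 0.186 between the others), and without it the counts were 1, 19, 2 and 12 (4.52%, 31.5%, 10.4% and 12.8%). The planned tests with negative binomial models were not run. Depth limits the 13 untested members and the low ones among the tested.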
